A study of Mus musculus with 2 samples.

Results

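The IL-6 family of cytokines, their receptors, Stat3 and Socs3 were examined by RNA-seq in the whole omentum after ablation of Postn-expressing stromal cells. The set was defined by gene symbol. It held 4 ligands (Il6, Osm, Lif and Il11), 4 receptor subunits (Il6ra, Il6st, Osmr and Lifr), the transcription factor Stat3 and its feedback inhibitor Socs3. All 10 were listed among the 24346 gene symbols measured. The omentum is a fat depot of the peritoneal cavity whose milky spots hold lymphocytes, macrophages and stromal cells in close contact. The WT library came from wild-type mice and the Postn-DTR library from heterozygous mice with a diphtheria toxin receptor cassette in the first coding exon of 1 Postn copy, made in C57BL/6 zygotes. Both genotypes received diphtheria toxin (DT) by intraperitoneal injection, and omenta were taken 5 days later. The Postn promoter is also used by cells other than the Aldh1a2+ fibroblastic reticular cells that the model was made to ablate. Sex, age and the number of mice per library were not given in the sources used here. Each genotype was represented by 1 library, so the spread between mice is unknown, no difference could be checked in a replicate and no p-value is given.

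Cytokines of this family share the signalling chain gp130, encoded by Il6st. IL-6 first binds its own receptor chain, encoded by Il6ra, oncostatin M (OSM) uses OSMR in the mouse, and leukemia inhibitory factor (LIF) uses LIFR, each together with gp130. The receptors activate JAK kinases, which phosphorylate STAT3, and STAT3 then switches on its target genes, among them Socs3, whose product blocks gp130 signalling in turn. IL-6 is best known as the inducer of acute-phase proteins, and in fat it is made by macrophages, stromal cells and mesothelial cells among others. RNA-seq measures transcripts and not STAT3 phosphorylation.

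Socs3 and Il6 were the members that differed most between the libraries. The sequences around their start sites are shown because STAT3, NF-kappaB and C/EBP factors are known regulators of this pathway. Both are RefSeq windows on GRCm38.p6, printed 5′ to 3′ along the gene, with 250 bases before the start site and 50 bases from it onward. The Il6 window is chr5:30012864-30013163 on the plus strand. Its capitals mark an AP-1 motif (TGANTCA) that began 249 bases before the start, a C/EBP motif (TTGCNNAA, on the opposite strand) 128 bases before it, and an NF-kappaB motif 44 bases before it. The Socs3 window is chr11:117969317-117969616 on the minus strand, and its capitals mark a STAT motif (TTCNNNGAA) that began 154 bases before the start.
Il6: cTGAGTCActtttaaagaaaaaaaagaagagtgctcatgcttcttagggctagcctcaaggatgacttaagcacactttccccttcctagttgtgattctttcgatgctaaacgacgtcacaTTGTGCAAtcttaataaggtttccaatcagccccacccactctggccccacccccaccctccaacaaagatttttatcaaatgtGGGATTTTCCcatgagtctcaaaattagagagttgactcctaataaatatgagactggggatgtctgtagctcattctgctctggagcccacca
Socs3: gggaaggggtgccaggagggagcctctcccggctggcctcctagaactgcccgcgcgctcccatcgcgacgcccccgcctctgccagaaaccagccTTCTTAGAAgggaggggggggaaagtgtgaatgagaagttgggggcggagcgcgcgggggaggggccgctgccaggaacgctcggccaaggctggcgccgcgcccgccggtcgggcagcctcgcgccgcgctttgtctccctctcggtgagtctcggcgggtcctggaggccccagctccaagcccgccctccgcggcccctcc

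Windows were at hand for 9 of the 10 members, all but Osm, and 5 motifs were searched on both strands. Il11 and Lifr had 2 windows each, which made 11 windows. A member was counted when any of its windows held the motif, whereas the shares of all windows are per window. The STAT motif was found in the window of 1 member, Socs3, and in 8.30% of all 32851 windows. The NF-kappaB motif was found for 1 member, Il6, and in 0.411% of all windows. The AP-1 motif was found for 4 members, which were Il6, Lif, Il11 and Osmr, and in 7.81% of all windows. The C/EBP motif was found for Il6 alone, and in 10.8% of all windows. The core of the IL-6 response element (CTGGGAA) was in no member's window and in 11.1% of all windows. These matches are letters in a window and were not tested as binding sites.

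The authors deposited FPKM, the number of fragments per kilobase of transcript scaled to the mapped fragments. For each gene, log2(FPKM + 1) in WT was subtracted from that in Postn-DTR, and this difference, the change, is smaller than the log2 ratio where FPKM is low. The comparison covered the 13127 genes whose FPKM averaged 1 or more over the libraries, and a gene was called higher or lower when the change reached 2-fold. Of the 10 members 8 passed this minimum. Lif and Il11 were under it, and Il6 passed it only through its value in Postn-DTR. Socs3 and Il6 were called higher, against 3.88% of all genes compared, and no member was called lower, against 3.12%. Without the minimum the same 2 of 10 members were called higher, against 2.16% of all genes. At a threshold of 1.5-fold, 5 of the 8 were higher (Socs3, Il6, Il6ra, Osm and Stat3), against 9.86%, and none was lower, against 8.84%. When acinar genes of the pancreas were removed and both libraries were scaled to the same total, the number higher at 1.5-fold was 2 (Socs3 and Il6), against 4.81% of all genes, with changes of 0.46 for Il6ra, 0.48 for Osm and 0.38 for Stat3. The median change was 0.73 over the 8 members and 0.02 over all genes compared.

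Postn, the targeted gene, was at an FPKM of 58.3 in the WT library and 16.2 in the Postn-DTR library. Because the cassette sits in 1 Postn copy, loss of cells and the altered copy cannot be told apart in the Postn value. Aldh1a2 was at 85.5 and 63.3. The depth estimated from the steps between low FPKM values was about 23500000 fragments in WT and 24300000 in Postn-DTR. The intervals given here for FPKM ratios are exact 95% intervals from read numbers estimated with this depth. They cover counting error only, and not the spread between mice. Genes of pancreatic acinar cells, a tissue that adjoins the omentum, summed to 11871 FPKM in the WT library and 20.3 in the Postn-DTR library. The largest changes among them were those of Cela2a (1628 and 0.351), Ctrb1 (2490 and 1.51), Clps (1112 and 0.142), Pnlip (692.6 and 0.0646) and Try4 (626.3 and listed at 0). The FPKM of all genes summed to 542190 in the WT library and 671882 in the Postn-DTR library, acinar genes included. The Postn-DTR total was the larger, although the acinar genes were higher in WT. Under the scaling without acinar genes, Postn-DTR values were multiplied by 0.789, and the median change of all genes moved by -0.30, to -0.28. The members' values under this scaling, named equal totals, are given where they change a reading.

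**Figure D1:**
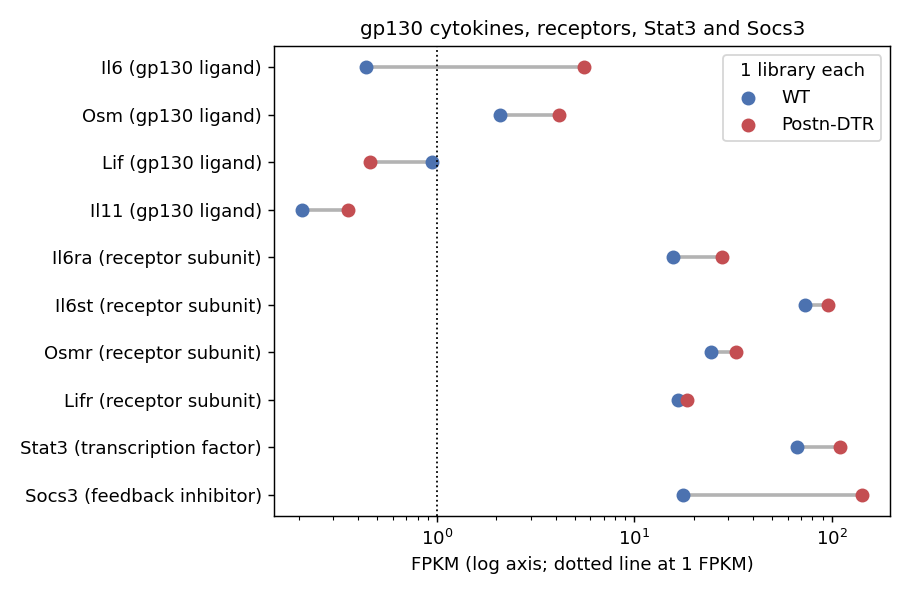
FPKM (log axis) of the 10 genes in the WT library (blue) and the Postn-DTR library (red), with a grey line joining the 2 values of each gene and a dotted line at 1 FPKM. Socs3 was at 17.8 and 143.4 and Il6 at 0.436 and 5.58, whereas Lif alone was lower in Postn-DTR, at 0.945 and 0.457.

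The ligands were the least abundant members in both libraries. In whole tissue, a different number of cells of a type and a different amount of RNA per cell cannot be told apart, which holds for every value given here. Il6 (ENSMUSG00000025746, GRCm38 chromosome 5, 30013114 to 30019981, plus strand) stood at an FPKM of 0.436 in the WT library and 5.58 in the Postn-DTR library, which was 12.8-fold higher (95% counting interval 6.51 to 28.6). This rested on about 9 reads in WT and 119 in Postn-DTR. Its change of 2.195 ranked 107 from the top among the genes compared. Osm (chromosome 11, 4236420 to 4241026, plus strand), made mainly by myeloid cells, showed an FPKM of 2.09 in the WT library and 4.19 in the Postn-DTR library. The ratio was 2.004 (counting interval 1.58 to 2.57), but the change of log2(FPKM + 1) was 0.75 and Osm was not called. Lif lies 16.5 kb further along the chromosome (4257557 to 4272514, plus strand). Lif encodes a cytokine that acts on stem cells, stromal cells and the endometrium, and its FPKM was 0.945 in the WT library and 0.457 in the Postn-DTR library. The ratio was 0.483 (counting interval 0.326 to 0.708), from about 84 and 42 reads. These neighbouring ligand genes differed between the libraries in opposite directions, and the counting intervals of both ratios left out 1. Il11, which encodes a cytokine of stromal cells linked to fibrosis (chromosome 7, 4772373 to 4782859, minus strand), was at 0.209 and 0.354. About 8 and 14 reads lay behind these values, and a difference was not detectable at this depth (counting interval of the ratio 0.662 to 4.66). The FPKM of the 4 ligands summed to 3.68 in the WT library and 10.6 in the Postn-DTR library. Osm was the most abundant ligand in WT and Il6 in Postn-DTR, and the ratio of Il6 to Osm FPKM, which does not depend on scaling between libraries, was 0.209 in the WT library and 1.33 in the Postn-DTR library.

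The receptor subunits were more abundant than the ligands and differed less. Il6st (ENSMUSG00000021756, chromosome 13, 112464070 to 112510086, plus strand), the chain shared by the family, showed an FPKM of 73.8 in the WT library and 96.1 in the Postn-DTR library, a change of 0.38. Il6ra (chromosome 3, 89864059 to 89913196, minus strand), which gives a cell its direct response to IL-6, was at 15.7 and 27.8, a change of 0.79. Of the 4 receptor genes Il6ra had the largest change, at a ratio of 1.77 (counting interval 1.70 to 1.85). Osmr and Lifr lie 216 kb apart on chromosome 15, on opposite strands. Osmr was at 24.5 and 32.6, a change of 0.40. Lifr was at 16.6 and 18.5, a change of 0.14 that became -0.18 at equal totals, where the changes of Il6st and Osmr were 0.04 and 0.07. The change of Il6ra was 0.46 or more under each of the 5 other scalings and pseudocounts tried. Within each library, Il6ra amounted to 0.212 of the Il6st FPKM in WT and 0.289 in Postn-DTR. Osmr amounted to 0.332 and 0.340 of it, and Lifr to 0.226 and 0.192. The 4 subunits summed to 130.6 FPKM in WT and 175.0 in Postn-DTR.

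Stat3 (ENSMUSG00000004040, chromosome 11, 100885098 to 100939540, minus strand) showed an FPKM of 66.5 in the WT library and 109.9 in the Postn-DTR library, a change of 0.72. It was not called, and 7.12% of the genes compared had a larger change. Socs3 (ENSMUSG00000053113, chromosome 11, 117966079 to 117970047, minus strand) showed an FPKM of 17.8 in the WT library and 143.4 in the Postn-DTR library, which was 8.07-fold higher (counting interval 7.55 to 8.63). Its change of 2.94 was the largest of the members and ranked 56 among the 13127 genes compared. The Socs3 window with the STAT motif printed above belongs to the RefSeq start site, which lies inside the longer GENCODE gene. Socs3 held place 4 of the 10 members by FPKM in WT and place 1 in Postn-DTR, above Stat3 and Il6st. The ratio of Socs3 to Stat3 FPKM was 0.267 in the WT library and 1.305 in the Postn-DTR library. With 1 library per genotype, neighbours in the order of levels could not be compared with their spread.

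**Figure D2:**
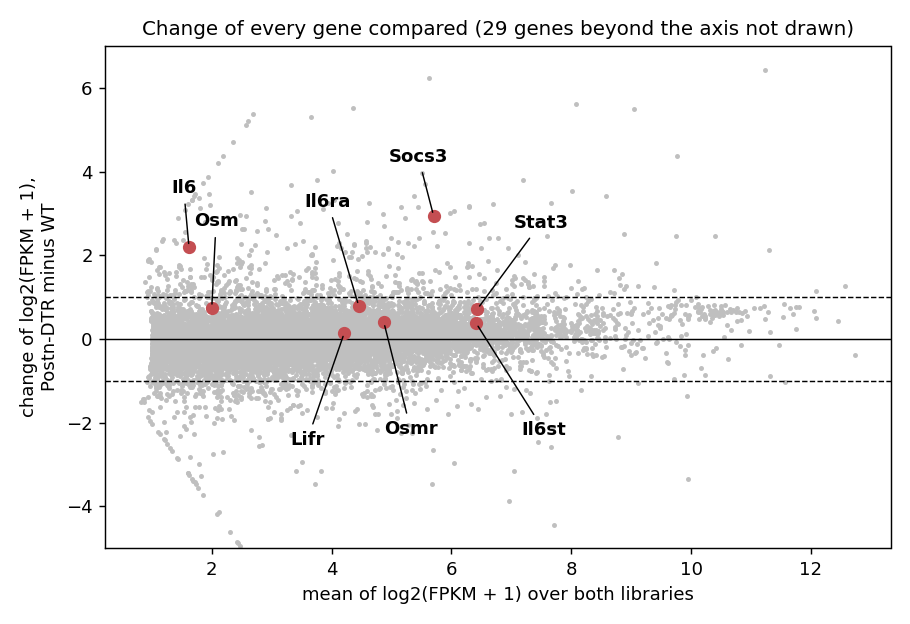
Difference in log2(FPKM + 1), as Postn-DTR minus WT (vertical axis), against the mean of log2(FPKM + 1) over both libraries (horizontal axis) for the genes compared (grey), with the 8 members that passed the minimum in red, dashed lines at 2-fold and 29 genes beyond the axis not drawn. Socs3 at 2.94 and Il6 at 2.195 lay above the upper dashed line, and the other 6 lay between 0.14 and 0.79.

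The genes with the most similar pair of values were found by distance on the log2(FPKM + 1) scale, over 2 libraries only. Nearest to Il6 were Tat (FPKM of 0.454 and 6.03), Clec1b (0.266 and 5.54) and Gm5483 (0.203 and 6.09). Tat encodes tyrosine aminotransferase, an enzyme known for its induction by glucocorticoids, and Clec1b a lectin receptor of platelets and myeloid cells. Nearest to Socs3 were Arhgef12 (20.5 and 125.1), the immediate early gene Ier3 (21.2 and 178.0) and the immediate early transcription factor Egr1 (23.6 and 141.3).

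The rest of the pathway was described with lists of other genes. Each list count stands beside 3.88% of all genes compared called higher and 3.12% called lower. The lists were chosen with earlier results of these data known, so their counts describe the listed genes and are no test of enrichment. Of the list genes called higher, Saa1, Saa2, Fgg, Csf3, Il1a and Cxcr2 passed the minimum only through Postn-DTR. Of those called lower outside the acinar list, Mpo and Cd8a passed it only through WT. The other ligands and receptors of the family did not include a gene called higher. Of 8 further ligand genes 4 were compared and 0 were called. Clcf1, a cytokine that uses the ciliary neurotrophic factor receptor, was at 15.5 and 16.0. Ebi3, which encodes a subunit of IL-27, was at 9.21 and 12.03. The median change of the 4 was 0.20 and turned to -0.12 at equal totals, where that of all genes was -0.28. Of 4 further receptors 1 was called lower and 0 higher. This was Il27ra, the IL-27 receptor of lymphocytes, at 12.4 in the WT library and 4.83 in the Postn-DTR library, a change of -1.20. Il11ra1, the receptor for IL-11, was at 40.8 and 37.6.

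Stat3 had a larger change than each of the other STAT and JAK genes. Of 10 genes for JAK kinases and other STAT factors 0 were called. Their median change was -0.28, and 8 of the 10 changes were negative. Of all genes compared, 51.9% had a positive change. At equal totals 10 of 10 were negative, where the median change of all genes was itself -0.28. Stat6 was at 57.7 and 62.0, and Jak1, a kinase that binds gp130, at 57.3 and 51.4. Jak2 was at 14.1 and 15.2, and its change of 0.11 became -0.21 at equal totals.

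Socs3 also stood apart from the other inhibitors by size. Of 15 further inhibitors of JAK-STAT signalling 1 was called higher and 0 lower. Their median change of 0.24 became -0.06 at equal totals, where that of all genes was -0.28. The called gene was Socs2, an inhibitor of growth hormone signalling, at 14.1 and 30.7, a change of 1.07. Its change was under 2-fold at the same 75th percentile (0.97) and at equal totals (0.74). Socs1, the SOCS protein best known for blocking interferon signals, was at 8.17 and 6.66. Cish, a target of STAT5, was at 11.1 and 15.3. The ratio of Socs3 to Socs1 FPKM was 2.18 in the WT library and 21.5 in the Postn-DTR library.

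Other receptors and cytokines that act through STAT3 were examined because they share the downstream path with gp130. Of 6 cytokines 3 were compared and 2 were called higher, against 3.88% of all genes compared. Csf3, 1 of these 2, passed the minimum only through Postn-DTR. Il10, an anti-inflammatory cytokine, was at 1.20 in the WT library and 7.63 in the Postn-DTR library. Csf3, which encodes the neutrophil growth factor G-CSF, was at 0.0739 and 10.1, a ratio of 137.3 that rested on about 2 reads in WT (counting interval 37.7 to 1139). Lep, the adipocyte hormone leptin, was at 22.7 and 20.3. Of 7 receptors 6 were compared and 1 was called higher, the G-CSF receptor Csf3r, at 6.87 and 15.9. Its change of 1.10 became 0.78 at equal totals. Il22ra1 was at 2.90 and 6.78, and Lepr at 6.59 and 10.9.

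Genes known to be induced by STAT3 in other settings were more often higher than lower. Of 19 such genes 7 were called higher, against 3.88% of all genes, and 1 was called lower, with a median change of 0.83. Because the list was chosen with earlier results of these data known, this count is no test of enrichment. Timp1, an inhibitor of matrix metalloproteinases, was at 10.5 in the WT library and 178.7 in the Postn-DTR library, a change of 3.97. Fos and Junb, immediate early AP-1 subunits, were at 10.6 and 73.9 and at 41.5 and 189.2. Cebpd, a transcription factor of the acute-phase response, was at 15.9 and 68.2, and its relative Cebpb at 39.0 and 110.3. The other called genes were Pim1, a kinase, at 29.8 and 80.1, and Bcl3, an NF-kappaB cofactor whose change of 1.03 was 0.92 at the same 75th percentile and 0.69 at equal totals. Ccnd1, which encodes cyclin D1, was called lower, at 34.8 and 13.4. Several of these genes also respond to other pathways, and the part of STAT3 in their values was not tested.

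Of 20 acute-phase genes 15 were compared, with a median change of 1.70. Of these 9 were called higher and 1 lower, against 3.88% and 3.12% of all genes compared. Saa1, Saa2 and Fgg passed the minimum only through Postn-DTR, and this list too was chosen with earlier results of these data known. The largest changes were in Saa1, Saa2, Saa3, Lcn2 and Serpina3n. Saa3, a serum amyloid A protein made outside the liver, was at 259.5 and 22469, Lcn2, an iron-siderophore binding protein, at 37.7 and 1908, and Serpina3n, a protease inhibitor, at 116.0 and 1248. Saa1 was at 0.318 and 677.3 and Saa2 at 0.526 and 626.6. Reads of this very similar pair may have been shared out between them in counting, which leaves each value uncertain. Orm1, an acute-phase carrier protein, was called lower, at 182.2 and 22.6. The fibrinogen chain genes were all listed at 0 in WT. In Postn-DTR, Fgg was at 4.21 (about 156 reads) and was called higher, Fga was at 1.61 (about 93 reads) and under the expression minimum, and Fgb was at 0. Crp and Apcs were listed at 0 in both libraries. Of 6 markers of hepatocytes, the main source of acute-phase proteins, 2 passed the minimum. These were Cyp2e1, at 681.6 and 1205, and Alb, at 2.17 and 1.22. Ahsg was at 0.997 and 0.601, Ttr at 0.0842 and 0, Apoa1 at 0.0546 and 0.422, and Apob at 0 in both.

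**Figure D3:**
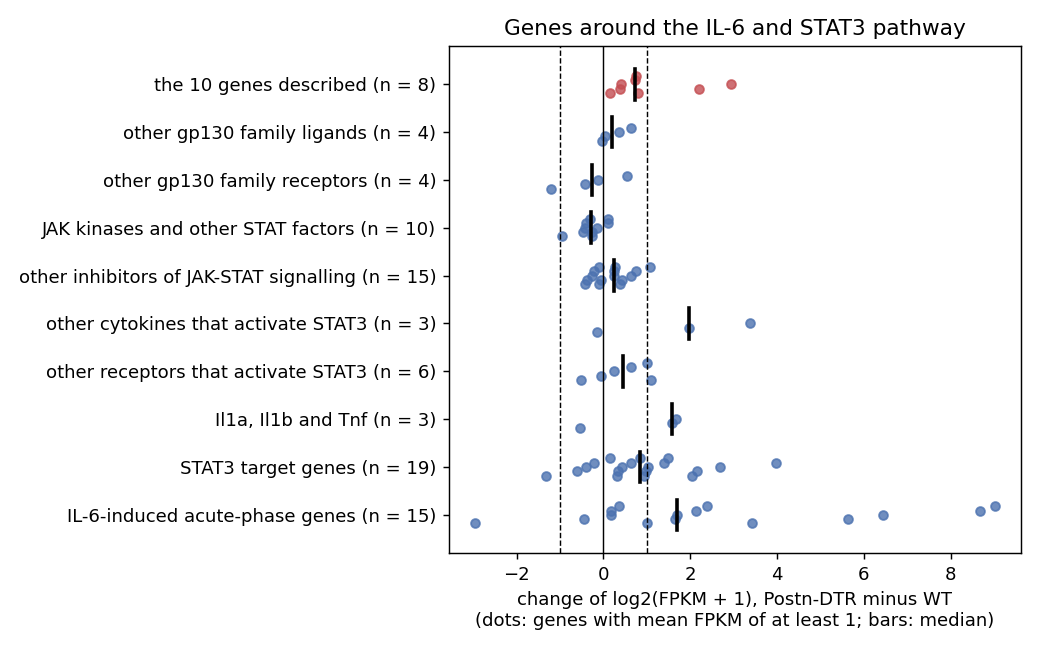
Difference in log2(FPKM + 1), as Postn-DTR minus WT, for the genes compared (dots) of the 10 genes described (red) and 9 lists of related genes (blue), with the median of each as a black bar and dashed lines at 2-fold. The median was 0.73 for the genes described, -0.28 for JAK kinases and other STAT factors, 0.83 for STAT3 target genes and 1.70 for acute-phase genes.

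Markers of cell types that make or answer these cytokines also differed between the libraries. All 8 macrophage markers had positive changes and 4 were called higher, against 51.9% and 3.88% of all genes compared. Their FPKM summed to 2878 in the WT library and 4819 in the Postn-DTR library. Cd14 was at 33.6 and 230.1, Itgam at 46.8 and 251.9, Adgre1 at 41.1 and 137.6 and Cd68 at 113.8 and 369.4. Of 8 neutrophil markers 3 were called higher and 3 lower. The higher ones were Cxcr2 (0.514 and 4.03), Retnlg (12.8 and 72.6) and Csf3r, already described as a receptor, and the lower ones were Ngp (48.0 and 13.2), Mpo (3.84 and 0.726) and Elane (5.86 and 1.85), granule genes of immature granulocytes. Of 7 T cell markers 4 were called lower and 0 higher, namely Cd4 (11.3 and 3.41), Lck (20.3 and 8.37), Cd3e (15.6 and 6.82) and Cd8a (2.81 and 0.897). Of 6 B cell markers 1 was called lower, Ms4a1 (56.8 and 23.6). Mast cell markers summed to 63.8 in the WT library and 264.8 in the Postn-DTR library, with 3 of 5 called higher, namely Tpsb2 (18.02 and 99.97), Cma1 (16.5 and 84.8) and Cpa3 (10.7 and 52.5). The summed FPKM of 6 mesothelial markers was 507.0 and 549.0, that of 8 fibroblast markers 4325 and 3710, that of 6 endothelial markers 244.2 and 231.8, and that of 8 adipocyte markers 15096 and 14567. Dpt of the fibroblast markers (236.9 and 67.3) and Lrrn4 of the mesothelial markers (62.7 and 29.2) were called lower. Pecam1 (109.0 and 109.5) and Cdh5 (46.5 and 42.4) were the most abundant endothelial markers. Cfd (7764 and 5976) and Fabp4 (4879 and 6519) were the most abundant adipocyte markers, at high levels in both libraries. Of the 8 adipocyte markers 5 had negative and 3 positive changes, and 0 were called. Lipe (278.8 and 139.2) had a change of -0.997, which was 2-fold or more lower under each of the 3 other scalings. The part of these cell types in the values of Il6, Osm, Il6ra and Socs3 was not tested.

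The direction of the members was compared under other scalings and pseudocounts. The change of Socs3 stayed between 2.60 and 3.01 under the 5 alternatives. That of Il6 lay between 0.96 and 3.40, at pseudocounts of 5 and 0.1, and among the 5 was under 2-fold only at the former. Stat3 stayed between 0.38 and 0.72, Osm between 0.37 and 0.97, and Lif between -0.91 and -0.12. Of the 10 members only Lifr turned in direction, at equal totals, where the median change of all genes was -0.28.

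**Figure D4:**
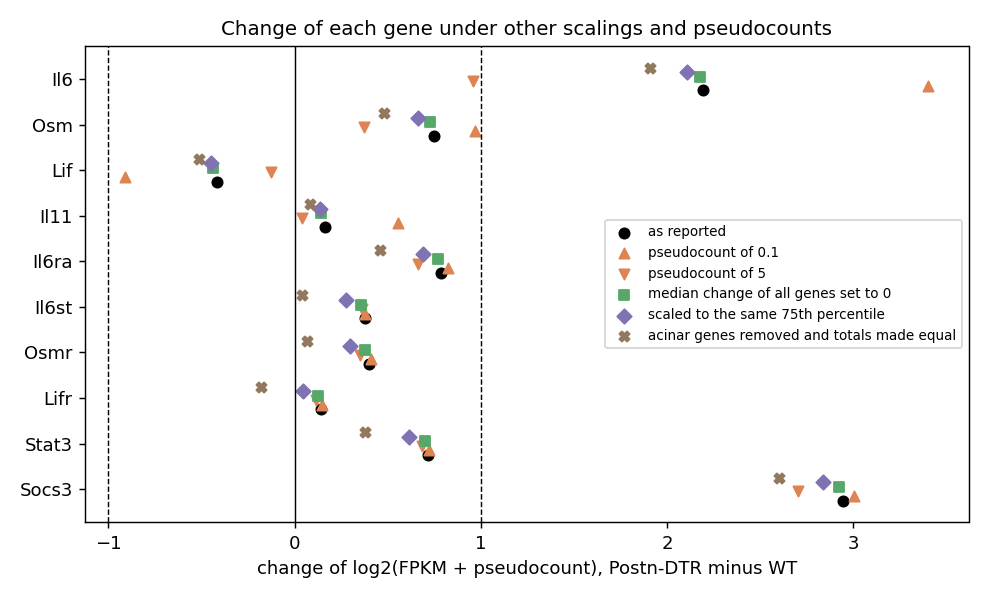
Difference in log2(FPKM + pseudocount), as Postn-DTR minus WT, of each of the 10 genes as reported (black) and under 5 alternatives (colours and marker shapes), with dashed lines at 2-fold. Socs3 lay above 2-fold under each, Il6 dropped to 0.96 with a pseudocount of 5, and Lifr was the gene whose points lay on both sides of 0.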

How the data were processed

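RNA-seq was performed on whole omenta of DT-treated WT and Postn-DTR mice, with 1 library per genotype assigned from the genotype labels. Per the labels, libraries were made with a stranded, poly(A)-selecting TruSeq kit. The paper's RNA-seq methods instead name a NEBNext Ultra kit and sorted omental cells, and give no separate protocol for whole omenta. The authors deposited FPKM, with 1 value per gene symbol. The submitters' processing notes name TopHat2 2.1.1, Bowtie2 2.2.8, SAMtools 0.1.18, Cuffdiff 2.2.1 and build mm10, and the annotation was not given in the sources used here.

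Changes, counts and medians were computed in Python 3.11.15 from log2(FPKM + 1) for genes averaging 1 FPKM or more. Positions and transcript lengths were taken from GENCODE M21 (GRCm38), which holds 95.7% of the 24346 symbols. Relative depth was read from 723 genes with FPKM under 0.1 in both libraries, of which 80.8% had ratios on small whole-number multiples of 1 step. Fragment totals were then fitted on genes with 1 annotated transcript, with 212 bases taken off each length, and read numbers from them are approximate. Where fewer than 50 reads were estimated, the nearest whole pair that gave the FPKM ratio was used. The scripts were tested on simulated data.

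The named genes were the members, the genes called in each list (up to 5) or otherwise its most abundant genes, and the 3 genes nearest to each called member. Jak2, Il11ra1, Socs1, Cish, Lep, Lepr, Il22ra1, Pim1, Bcl3, Ccnd1, Orm1, the hepatocyte genes other than Alb and Cyp2e1, the acute-phase genes listed at 0 in a library and the genes under the minimum were named after their values were seen. The members and lists were chosen with earlier results of these data known. Ly6g and Trac were not analysed here, and some genes of the lists are not reported here.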

Additional observations from a re-analysis of the deposited data

How the results depend on the processing

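With 1 library per genotype, leaving out a replicate was not possible, and 9 alternatives were tried. The number of members called higher, 2 as reported, was 1 with a pseudocount of 5 (Il6 was lost), 1 with a mean FPKM of at least 10 (6 members compared, without Il6) and 5 at 1.5-fold. It was 2 under the other 6. No member was called lower under any of the 9. The members' median change, 0.73 as reported, was 0.52 with a pseudocount of 5 and 0.56 both without a minimum and with a minimum of 10. At equal totals without acinar genes it was 0.42. The median change of all genes compared was 0.02 as reported and -0.28 at equal totals. The number of members higher at 1.5-fold, 5 as reported, was 2 at equal totals and 4 or 5 under the other 4 scalings and pseudocounts, a set chosen after seeing the data. Over all genes, 509 were higher as reported, and the number was 287 at pseudocount 5, 303 at minimum 10, 297 at equal totals, and 1294 or 199 for thresholds of 1.5-fold or 3-fold. Lower genes numbered 410 as reported, 643 and 168 at pseudocounts 0.1 and 5, 173 at minimum 10, 742 at equal totals, and 1160 or 153 for those thresholds. Stricter minimums, higher thresholds and larger pseudocounts lower a count by construction. Depth limited Il11 (about 8 and 14 reads) and the WT value of Il6 (about 9 reads).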

Other observations

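Cytokines known to induce IL-6 in stromal and myeloid cells did not share a direction. Il1b, which encodes interleukin-1 beta, showed an FPKM of 1.87 in the WT library and 8.19 in the Postn-DTR library, a change of 1.68. Il1a, the related alarmin, was at 0.412 and 3.21, a change of 1.58. Tnf, which encodes tumor necrosis factor, was at 3.76 and 2.26, a change of -0.55. The Tnf ratio was 0.601 (95% counting interval 0.445 to 0.800). Ptgs2, the inducible cyclooxygenase gene, was under the expression minimum, at 0.2503 and 0.695. Of the 3 genes compared 2 were called higher and 0 lower, against 3.88% and 3.12% of all genes compared. Il1a, 1 of these 2, passed the minimum only through Postn-DTR.

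Some cytokine genes of the lists were under the expression minimum. Il27, which encodes the other subunit of IL-27, was at 0.341 and 0.330. Il31 and Il22 were listed at 0 in both libraries. Il21, a T cell cytokine, was at 0.119 in WT and listed at 0 in Postn-DTR.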
